A study of Rattus norvegicus with 78 samples.

Results

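The GABA-B receptor is built from Gabbr1 and Gabbr2, and the array used here reads this pair of genes with 7 probesets, 5 for Gabbr1 and 2 for Gabbr2, out of 31099 probesets in all. The members were chosen by gene symbol in the array annotation, and 1 Gabbr1 probeset, 1388030_a_at, was singled out because its line difference departs from those of the other Gabbr1 probesets. Its difference between the lines is therefore given as a description with no test. All 7 probesets passed the filter on low values in both brain regions, so that no member was lost.

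RNA was taken from the hippocampus (HIP) and from the prefrontal/frontal cortex (P/FC, the frontal lobe) of adult male rats of the Flinders Sensitive Line (FSL), a genetic model of depression, and of the Flinders Resistant Line (FRL), its control. Both lines were bred selectively from Sprague-Dawley rats for their response to an anticholinesterase agent, all animals went through a forced swim test about a week before tissue was taken, and the labels name no treatment. Cohort 1 had 12 FRL and 9 FSL rats, and cohort 2, 6 months later, had 10 FRL and 8 FSL rats, with 1 array for each rat and region and 39 arrays a region. The lines differ at many loci, and a line is a single breeding stock, so that a difference between them cannot be assigned to 1 gene. Values are normalised intensities with no unit, and differences are on the log2 scale, where 1 is a doubling.

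GABA-B is the metabotropic receptor for GABA, the main inhibitory transmitter of the brain, and it works as an obligate heterodimer. Gabbr1 binds GABA and the agonist baclofen, while Gabbr2 brings the dimer to the cell surface and couples it to Gi and Go proteins. Through these proteins the receptor opens Kir3 (GIRK) potassium channels, closes presynaptic calcium channels and inhibits adenylyl cyclase. Gabbr1 is made in long and short isoforms that start from different promoters, and which isoform each probeset reads is not given in the sources used here. Probesets whose name ends in _a_at were designed to read more than 1 transcript of the same gene.

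The arrays were alike in brightness, with medians between 56.8 and 63.0 for HIP arrays and between 60.8 and 65.9 for P/FC arrays. The labelled regions were borne out by their markers, since the summed level of 5 hippocampal genes lay between 7.18 and 7.75 in HIP and between 5.98 and 6.62 in P/FC (mean log2 intensity). The summed level of 6 striatal markers reached from 6.03 to 9.13 in P/FC against 5.95 to 6.60 in HIP. Its median in P/FC was 7.15 in FRL and 8.23 in FSL, with ranges that overlapped, and 2 of the 6 genes, Drd1 and Tac1, passed as higher in FSL there. Of 7 astrocyte markers 5 were lower in FSL in HIP and 6 in P/FC, and of 5 neuronal markers 2 and 3 were higher, where 7.33% of all probesets were called in HIP and 18.6% in P/FC. In P/FC 2 of 5 cortical markers (Cux2 and Lamp5) and 2 of 5 microglial markers (Csf1r and Ctss) were lower too, and in HIP 1 microglial marker was higher and 1 lower. Of the neuronal markers that did not pass, Rbfox3 differed by -0.15 in HIP and -0.10 in P/FC and Snap25 by -0.0054 and -0.050. Nefl, which did not pass in HIP, differed there by 0.092. The log2 ratio of 3' to 5' control probesets, used here to compare RNA quality, also went with the line. It was the mean ratio, not a grade of quality, that was lower in FSL in every cohort and region for both Gapdh and Actb. In HIP of cohort 1, for example, the Actb ratio was 0.718 ± 0.0943 in FRL (SD, n = 12) and 0.596 ± 0.0342 in FSL (SD, n = 9). In P/FC of cohort 1 the Gapdh ratio was 0.834 ± 0.0928 in FRL (SD, n = 12) and 0.735 ± 0.0472 in FSL (SD, n = 9).

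The Gabbr1 probeset 1388030_a_at was dimmer in FSL than in FRL in both regions and both cohorts. In HIP of cohort 1 the lowest, median and highest intensities were 122, 239.6 and 327 in FRL and 125, 139 and 185 in FSL. All 9 FSL arrays lay below the FRL median and 11 of 12 FRL arrays lay above the brightest FSL array, so that the groups overlapped through a single dim FRL rat. In HIP of cohort 2 the corresponding intensities were 196, 256 and 373 in FRL and 162, 193 and 277 in FSL. There 6 of 8 FSL arrays lay below every FRL array, while 1 FSL rat at 277 was brighter than the FRL median.

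P/FC gave the same picture for this probeset. In cohort 1 the lowest, median and highest intensities were 142, 238 and 370.1 in FRL and 118, 151 and 185 in FSL. In cohort 2 they were 194, 246 and 444 in FRL and 150.5, 195 and 210.5 in FSL. Every FSL array of P/FC was below the FRL median of its cohort, 9 of 9 and 8 of 8, and 9 of 12 and 9 of 10 FRL arrays were above the brightest FSL array.

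**Figure D1:**
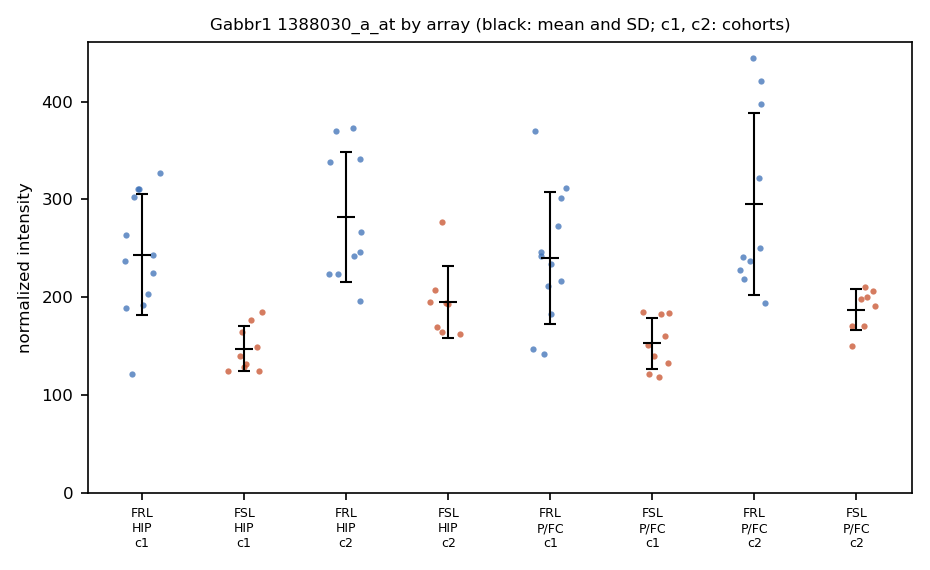
Normalised intensity of the Gabbr1 probeset 1388030_a_at on each array, by line, region and cohort, with black bars for the mean and SD. FSL arrays (orange) sit between 118 and 277 and FRL arrays (blue) between 122 and 444.

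Over both cohorts the difference of 1388030_a_at was -0.60 in HIP (SE 0.102), a signal in FSL 0.658 times that in FRL. In P/FC the difference was -0.61 (SE 0.110), a signal 0.655 times that in FRL. By cohort it was -0.69 and -0.51 in HIP and -0.61 and -0.60 in P/FC. Of all probesets kept, 85 in HIP (0.393%) and 123 in P/FC (0.550%) had a larger line difference in either direction. This ranks the value by which the probeset was chosen, so that it is a description and no test. The spread between rats was smaller in FSL, with no test, the SD of the log2 values being 0.536 and 0.728 times that in FRL in the HIP cohorts and 0.601 and 0.388 times in the P/FC cohorts. On the linear scale, where the SD also shrinks with the level, the ratios were 0.372, 0.550, 0.391 and 0.227. The authors allow that sequence polymorphisms could lie behind some probeset differences, which was not tested for 1388030_a_at.

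The brightest Gabbr1 probeset, 1388039_a_at, was also lower in FSL in each cohort and region, but by far less, between -0.11 and -0.022. Its mean in HIP was 1758 ± 86.9 in FRL (SD, n = 22) and 1706 ± 103 in FSL (SD, n = 17), and its mean in P/FC was 1663 ± 111 in FRL (SD, n = 22) and 1580 ± 123 in FSL (SD, n = 17). In HIP its arrays lay between 1660 and 1984 in FRL and between 1579 and 1890.5 in FSL. In cohort 1 of HIP 6 of 9 FSL arrays were below every FRL array, a small shift of -0.065, while in cohort 2 the lines split evenly around the FRL median. Set against this probeset on the same array, the log2 ratio of 1388030_a_at averaged -2.88 in FRL and -3.50 in FSL in HIP of cohort 1, and -2.70 and -3.19 in cohort 2. In P/FC the ratios were -2.88 and -3.46 in cohort 1 and -2.51 and -3.00 in cohort 2. The ratio compares lines for a pair of probesets and says nothing of which transcript is more abundant.

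In the test between the lines, limma's moderated test with Benjamini-Hochberg adjustment called 0 of the 6 other GABA-B probesets in HIP and 0 of 6 in P/FC. Over all probesets it called 7.33% in HIP, where 4564 had an unadjusted p under 0.05, and 18.6% in P/FC, where 7104 did. Of the GABA-B probesets none in HIP and 2 in P/FC had an unadjusted p under 0.05, namely 1388039_a_at of Gabbr1 and 1368952_at of Gabbr2.

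The other Gabbr1 probesets differed little where they were bright. For 1388039_a_at the difference was -0.043 in HIP (95% interval -0.094 to 0.0076, limma adjusted p 0.335) and -0.076 in P/FC (95% interval -0.14 to -0.012, limma adjusted p 0.0874). In P/FC 8 of 9 FSL arrays of cohort 1 and 7 of 8 of cohort 2 lay below the FRL median. With a filter of 100 in place of 30, which leaves fewer probesets to adjust over, the same difference had a limma adjusted p of 0.0483, and over all its alternatives the adjusted p lay between 0.0483 and 0.435. The second brightest, 1375720_at, differed by 0.013 in HIP (95% interval -0.042 to 0.068) and by -0.072 in P/FC (-0.18 to 0.035). In HIP its mean was 1392 ± 131 in FRL (SD, n = 22) and 1407 ± 144 in FSL (SD, n = 17).

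The dimmer Gabbr1 probesets were measured less tightly. For 1369371_a_at the line difference was -0.020 in HIP (95% interval -0.21 to 0.17) and 0.053 in P/FC (-0.15 to 0.26). This probeset was about as bright as 1388030_a_at, with a mean of 269 ± 58.9 against 221 ± 71.5 in HIP (SD, n = 39). Its intervals are no test of the difference seen there. The probeset 1388030_a_at was chosen for its distance from the other Gabbr1 probesets, this one among them. For 1369372_at, whose mean was 54.2 ± 10.9 in HIP and 82.9 ± 16.4 in P/FC (SD, n = 39), the line difference was -0.019 in HIP (-0.20 to 0.16) and -0.17 in P/FC (-0.35 to 0.013).

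**Figure D2:**
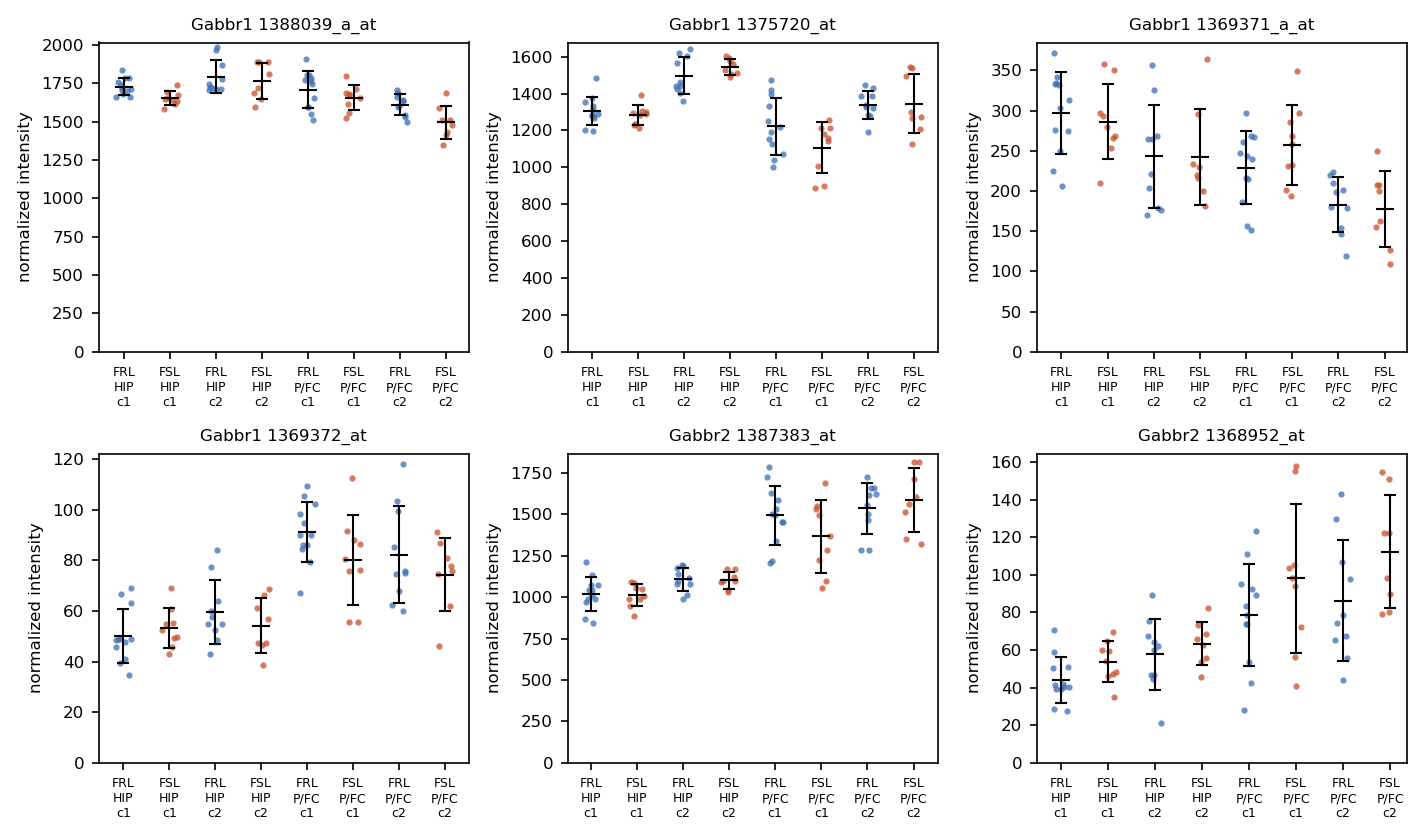
Normalised intensity of the other 4 Gabbr1 and both Gabbr2 probesets on each array, by line (FRL blue, FSL orange), region and cohort (c1, c2), with black bars for the mean and SD. The lines overlap in every panel, and Gabbr2 1387383_at is brighter in P/FC than in HIP.

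Gabbr2, the subunit that couples to G proteins, was read by a bright and a dim probeset. The bright one, 1387383_at, had intensities in HIP of 842, 1075 and 1212 in FRL and 886, 1057 and 1172 in FSL (lowest, median and highest). In P/FC they were 1205, 1517 and 1787 in FRL and 1055, 1515 and 1820 in FSL, so that the lines overlapped almost fully. The line difference was -0.0076 in HIP (SE 0.0367, 95% interval -0.082 to 0.067) and -0.046 in P/FC (SE 0.0598, -0.17 to 0.075).

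The dim Gabbr2 probeset, 1368952_at, averaged 53.8 in HIP and 92.0 in P/FC. It thus lay nearer the filter of 30 in HIP, and its lowest arrays fell below the filter in both regions. In HIP its lowest, median and highest intensities were 21.2, 46.7 and 89.1 in FRL and 35.0, 59.5 and 82.2 in FSL, and in P/FC they were 27.9, 78.7 and 143 in FRL and 40.9, 98.4 and 158 in FSL. FSL arrays were above the FRL median in 8 of 9 and 5 of 8 rats of the HIP cohorts and in 6 of 9 and 8 of 8 rats of the P/FC cohorts, with ranges that overlapped throughout. Its line difference was 0.26 in HIP (SE 0.128, limma adjusted p 0.245) and 0.36 in P/FC (SE 0.174, limma adjusted p 0.142), and neither passed.

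The dim Gabbr2 probeset moved with the 3' to 5' ratios across arrays. Over 39 P/FC arrays, as deviations from the means of line and cohort, it correlated with the Gapdh ratio at Pearson's r -0.58 (permutation p 0.00018, adjusted 0.00252) and Spearman's coefficient -0.56 (permutation p 0.00052, adjusted 0.00607). Without the 2 arrays farthest from the median ratio r was -0.51, and within cohorts it was -0.55 (n = 21) and -0.65 (n = 18). With the Actb ratio in P/FC r was -0.60 (permutation p 8e-05, adjusted 0.00187) and Spearman's coefficient -0.60 (adjusted 0.0021), without the 2 farthest arrays -0.57, and within cohorts -0.46 and -0.81. In HIP r with the Actb ratio was -0.49 (permutation p 0.0043, adjusted 0.043), Spearman's coefficient was -0.37 (adjusted 0.123), and within cohorts r was -0.43 and -0.60. Without the 2 farthest arrays it was -0.28, so that its size there rested in part on those arrays. With the Gapdh ratio in HIP r was -0.43 (permutation p 0.0082, adjusted 0.0638), which did not pass, and -0.54 without the 2 farthest arrays.

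With the Gapdh ratio as a covariate the line difference of 1368952_at was 0.15 in HIP and -0.026 in P/FC, and with the Actb ratio it was -0.048 in HIP and 0.19 in P/FC, all below the values without a covariate and 2 of the 4 of opposite sign. For 1388030_a_at of Gabbr1 the same covariates left the line difference at -0.64 and -0.74 in HIP and at -0.75 and -0.65 in P/FC (Gapdh and Actb). The ratios themselves differed between the lines, so that these fits cannot tell line and RNA ratio apart, and the cause was not tested. Adjustment covered 70 p-values from 35 relations, each of the 7 probesets against the Gapdh and Actb ratios in both regions and the striatal marker level in P/FC.

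The bright Gabbr2 probeset moved with another property of the P/FC arrays, their striatal marker level. As deviations from the means of line and cohort, 1387383_at correlated with the summed level of the 6 striatal genes at r -0.63 (permutation p 5e-05, adjusted 0.00175) and Spearman's coefficient -0.63 (permutation p 5e-05, adjusted 0.00175) over 39 arrays. P/FC arrays with more striatal transcript thus had less of this Gabbr2 signal, within cohort 1 (r -0.63, n = 21) and within cohort 2 (r -0.63, n = 18), and r was -0.56 without the 2 farthest arrays. No Gabbr1 probeset passed against the striatal level, and the nearest was 1375720_at with r -0.36 (permutation p 0.0265, adjusted 0.123) and Spearman's coefficient -0.38 (adjusted 0.118). With the striatal level as a covariate the line difference of 1387383_at was 0.043 in place of -0.046, and that of 1388030_a_at was -0.59. In tissue of mixed cells, fewer cells of a type and less RNA per cell cannot be told apart.

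**Figure D3:**
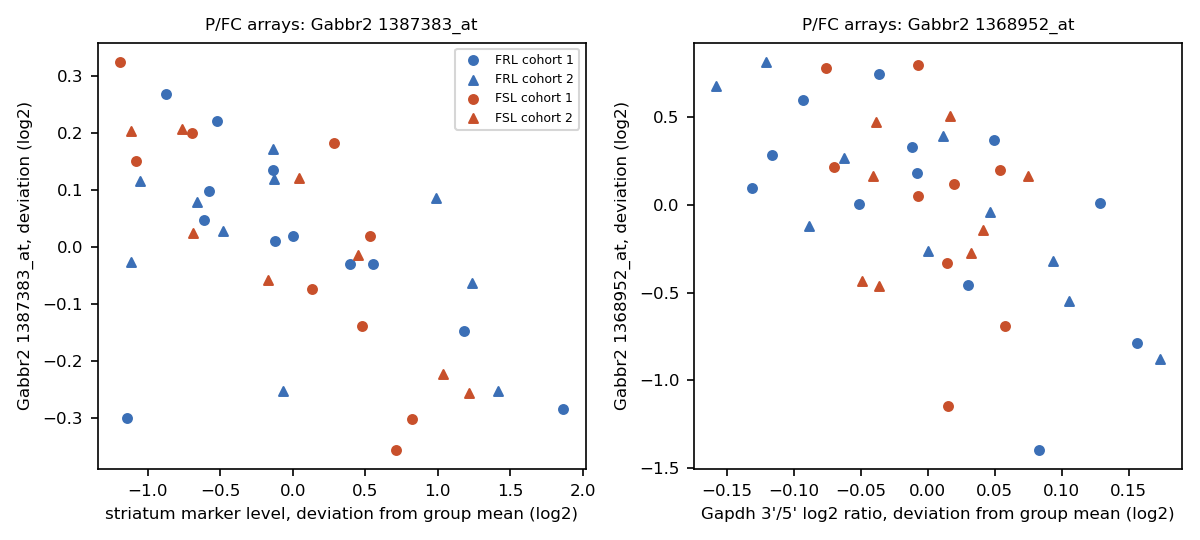
P/FC arrays as deviations from the mean of their line and cohort on the log2 scale, with Gabbr2 1387383_at against the striatal marker level (left) and Gabbr2 1368952_at against the Gapdh 3' to 5' ratio (right). Both fall from left to right, with r -0.63 and -0.58 over 39 arrays.

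The line differences were compared between regions and between cohorts for all 7 probesets, 1388030_a_at included, since these contrasts did not choose it. The test of P/FC against HIP called 0 of 7, with 0.0668% of all probesets called (14 in number) and 1664 at an unadjusted p under 0.05. The limma test of cohort 2 against cohort 1 called 0 of 7 in HIP, where 0% of all probesets were called and 936 had an unadjusted p under 0.05. In P/FC it also called 0 of 7, with 0% of all probesets called and 1036 at an unadjusted p under 0.05. For 1388030_a_at the line difference in P/FC minus that in HIP was -0.0055 (95% interval -0.31 to 0.30), and the change between cohorts was 0.18 in HIP (-0.23 to 0.59) and 0.010 in P/FC (-0.44 to 0.46). None of the 7 had an unadjusted p under 0.05 in these tests, and the smallest was 0.143, for 1387383_at between the cohorts in P/FC.

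Between the regions 6 of the 7 probesets passed the limma test, where 69.6% of all probesets were called, so that a call of this kind was common. Both Gabbr2 probesets were higher in P/FC. The bright one, 1387383_at, averaged 1058 ± 87.6 in HIP and 1495 ± 195 in P/FC (SD, n = 39), a difference of 0.49 (SE 0.0351, limma adjusted p 3.31e-21) or 1.40-fold, and its ranges in the regions, 842 to 1212 and 1055 to 1820, overlapped in part. The dim one, 1368952_at, averaged 53.8 ± 15.2 and 92.0 ± 33.5 (SD, n = 39), a difference of 0.73 (SE 0.110, limma adjusted p 1.39e-08). The median difference over all probesets was 0.085.

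The Gabbr1 probesets disagreed on the region. Lower in P/FC were 1388039_a_at by -0.10 (SE 0.0192, limma adjusted p 2.29e-06), 1375720_at by -0.17 (SE 0.0295, limma adjusted p 3.44e-07) and 1369371_a_at by -0.35 (SE 0.0701, limma adjusted p 1.02e-05). Higher in P/FC was the dimmest, 1369372_at, by 0.59 (SE 0.0639, limma adjusted p 3.57e-13). The probeset with the line difference, 1388030_a_at, averaged 221 ± 71.5 in HIP and 223 ± 80.6 in P/FC (SD, n = 39), and its difference of 0.0034 did not pass (95% interval -0.15 to 0.16, limma adjusted p 0.971). The study handled each region in its own runs, so that a region's effect and that of its runs cannot be told apart, and the labels do not say which arrays came from the same rat.

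**Figure D4:**
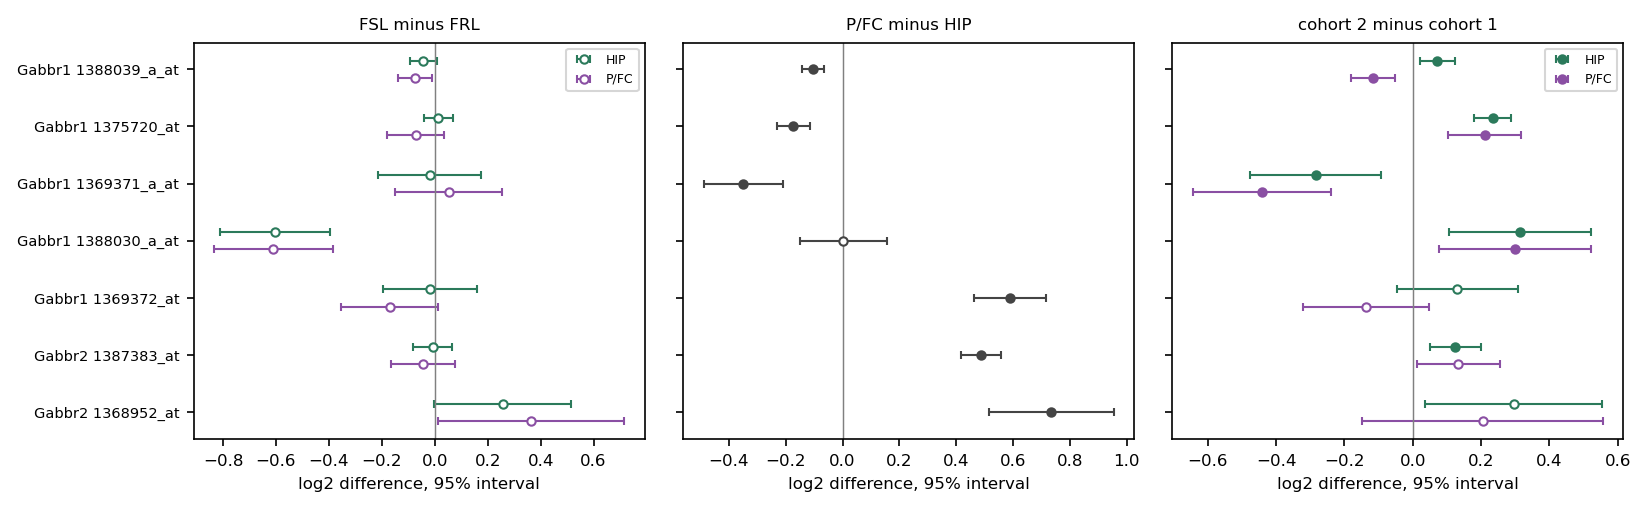
Log2 differences of the 7 probesets with 95% intervals between lines, regions and cohorts; filled points passed the limma test at an adjusted p under 0.05. The line difference of 1388030_a_at, by which it was chosen, was not tested and is drawn open at -0.60 and -0.61. Its intervals are a description only.

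Between the cohorts 5 of 7 probesets passed in HIP, where 39.3% of all probesets did, and 4 of 7 in P/FC, where 27.8% did. The probeset 1388030_a_at was higher in cohort 2, by 0.31 in HIP (SE 0.102, limma adjusted p 0.0138) and by 0.30 in P/FC (SE 0.110, limma adjusted p 0.0382), and 1375720_at of Gabbr1 was higher too, by 0.23 and 0.21. By contrast 1369371_a_at was lower in cohort 2, by -0.28 in HIP and -0.44 in P/FC. The brightest Gabbr1 probeset, 1388039_a_at, passed in opposite directions, 0.072 in HIP and -0.12 in P/FC, and the difference between these was not tested.

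Of Gabbr2, 1387383_at was higher in cohort 2 of HIP by 0.12 (SE 0.0367, limma adjusted p 0.00689) and did not pass in P/FC at 0.13 (limma adjusted p 0.0917). The dim 1368952_at differed by 0.30 in HIP (limma adjusted p 0.0640), which became 0.33 (limma adjusted p 0.0453) when the FSL rat with 277 for 1388030_a_at in HIP of cohort 2 was left out (between 0.00207 and 0.0844 over its alternatives). The cohorts were processed with different reagents, so that cohort and reagents cannot be told apart.

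Since the subunits work as a pair, their brightest probesets were compared across rats. In HIP 1388039_a_at of Gabbr1 and 1387383_at of Gabbr2, as deviations from the means of line and cohort, correlated at r 0.33 (permutation p 0.0185, adjusted 0.0552) and Spearman's coefficient 0.32 (permutation p 0.0486, adjusted 0.0648). In P/FC they correlated at r -0.36 (permutation p 0.0276, adjusted 0.0552) and Spearman's coefficient -0.28 (permutation p 0.0926, adjusted 0.0926). None of the 4 values passed after adjustment. Within cohorts r was 0.43 and 0.37 in HIP and -0.33 and -0.42 in P/FC, and without the 2 farthest arrays it was 0.26 and -0.38. The sign in P/FC depended on the probeset, since r with Gabbr2 was 0.42 for the second Gabbr1 probeset, 1375720_at, and since the means of all probesets of each gene correlated at 0.48 (permutation test, adjusted p 0.0121). The Gabbr2 mean includes the dim 1368952_at, which in P/FC moved with the Gapdh and Actb ratios at r -0.58 and -0.60. The part of that in the value of 0.48 was not tested. For the brightest pair itself r stayed negative over its alternatives, between -0.31 and -0.43, with permutation adjusted p between 0.0158 and 0.0881.

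Among themselves the GABA-B probesets varied largely apart, here given as r over 39 arrays with no test. The dim Gabbr2 probeset 1368952_at was in the closest pair of each region, with 1369371_a_at at 0.54 in HIP and with 1388030_a_at at 0.57 in P/FC. The latter pair reached 0.44 in HIP. The probeset 1388030_a_at showed no relation to the brightest Gabbr1 probeset, with -0.047 in HIP and -0.055 in P/FC. On the raw log2 values, to which the line difference adds, the gene most like 1388030_a_at was Smim29, a small membrane protein gene, in both regions (r 0.78 and 0.72), followed by Arhgap32 in HIP (0.74) and Klhdc3 in P/FC (0.68). Once line and cohort means were taken out, the 3 most alike genes were Tmem38a, Mllt1 and Gipc1 in HIP (0.67 to 0.69) and Spryd3, Ykt6 and Tmem59l in P/FC (0.66 to 0.68).

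For Gabbr2 1387383_at the likeness was closer in P/FC than in HIP. The leading genes in P/FC were Sorl1, a sorting receptor (0.86), Tmem178a (0.84) and Nptx1, a neuronal pentraxin of excitatory synapses (0.83), against Usp7 at 0.66 in HIP. For the dim 1368952_at they were Csnk1g3, Caprin1 and Etnk1 in HIP (0.86 to 0.87) and Aak1, Rab6b and Lingo1 in P/FC (0.86 to 0.88). For the brightest Gabbr1 probeset they were Septin11 in HIP (0.73) and Sin3b in P/FC (0.75). Within a region these arrays share their normalisation, and reagents within a cohort. The study processed each cohort in batches that the labels do not give, and their part in these likenesses was not tested.

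In the RefSeq gene table of the rat assembly GRCr8, Gabbr1 lies on chromosome 20 and Gabbr2 on chromosome 5. Of the 5 genes on each side of Gabbr1, Mog, the myelin protein gene next to it, and Zfp57, a zinc finger gene 2 places away, had a probeset. Mog differed by -0.038 in HIP and 0.071 in P/FC, and Zfp57 by 0.088 and 0.13, and neither passed in either region. Near Gabbr2, Tbc1d2, a Rab GTPase-activating protein gene, was lower in FSL in P/FC by -0.21 (SE 0.0636, limma adjusted p 0.0204) and differed by -0.15 in HIP (limma adjusted p 0.216).

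Downstream of the receptor, a list of 33 genes for GABA-B partners and effectors was read, of which 29 were kept in each region. Kctd8, Gnai3 and Adcy1 had no probeset with that single symbol, and Kctd16 lay below the filter. In HIP, where 7.33% of all probesets were called, 1 of the 29 was higher in FSL by limma and 0 were lower, and the median difference was 0.029 against -0.0016 over all probesets. In P/FC, against 18.6% of all probesets, 9 were higher and 2 were lower, with a median of 9.8e-05 against 0.0019 over all probesets. The list takes the brightest probeset of each gene, and among brighter probesets the called share was larger. With a filter of 100, 3 of 26 partners were higher and 0 lower in HIP, against 14.6% of all probesets. In P/FC 9 of 26 were then higher and 3 lower, against 32%.

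Among the G protein subunits in P/FC, Gnai1, the inhibitory alpha subunit, rose from 398 ± 94.4 in FRL (SD, n = 22) to 489 ± 56.3 in FSL (SD, n = 17), a difference of 0.34 (SE 0.0756, limma adjusted p 0.00177). The beta and gamma subunits Gnb2, Gng2 and Gng3 rose by 0.13, 0.21 and 0.11. The other G protein subunits did not pass in P/FC, at 0.16 for Gnao1, 0.059 for Gnb5, -0.0073 for Gnb1 and -0.024 for Gnai2. In HIP Gnai1 differed by 0.20 and did not pass (limma adjusted p 0.0637). Of the adenylyl cyclases, which the receptor inhibits, Adcy5, the form most abundant in striatum, rose in both regions, by 0.31 in HIP (SE 0.0633, limma adjusted p 0.00102) and by 0.28 in P/FC (SE 0.103, limma adjusted p 0.0491), and Adcy3 rose by 0.28 in P/FC. The P/FC call of Adcy5 was lost with no filter, quantile normalisation, the plain analysis of variance, either RNA ratio, the replicate block and the striatal level, where its difference was between 0.069 (striatal level) and 0.28 and its adjusted p between 0.0546 and 0.499. In HIP it was lost with the Actb ratio, at 0.23 (limma adjusted p 0.153). Adcy3 did not pass in HIP, at -0.020. Adcy2 and Adcy8 passed in neither region, at -0.030 and 0.022 in HIP and at -0.075 and -0.018 in P/FC. With a filter of 100 or the plain analysis of variance Adcy2 was called lower in P/FC.

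Of the auxiliary and trafficking proteins in P/FC, Kctd12, a subunit that speeds desensitisation of the receptor, was lower in FSL, from 278 ± 34.9 in FRL (SD, n = 22) to 249 ± 30.4 in FSL (SD, n = 17), by -0.17 (SE 0.0519, limma adjusted p 0.0215). Praf2, which holds Gabbr1 back in the endoplasmic reticulum, rose by 0.12, Nsf, the vesicle fusion ATPase, by 0.11 and Ywhaz, a 14-3-3 protein, by 0.10. Rgs7, which shortens G protein signals, was lower by -0.11 (limma adjusted p 0.0419). The effector channels did not pass in either region, neither the Kir3 genes Kcnj3, Kcnj5, Kcnj6 and Kcnj9 nor the calcium channel genes Cacna1a and Cacna1b.

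Of the genes that make, load and remove GABA, 6 were kept in each region. In HIP, where 7.33% of all probesets were called, 1 rose, Gad1, a GABA-synthesising enzyme, by 0.14 (SE 0.03, limma adjusted p 0.00164). In P/FC, against 18.6%, 3 rose, Gad2 by 0.47, Slc32a1, the vesicular GABA transporter, by 0.39 and Gad1 by 0.22. The medians of the list were 0.11 in HIP and 0.19 in P/FC, against -0.0016 and 0.0019 over all probesets, and none of its genes was called lower. These 3 genes are also markers of inhibitory neurons, of whose other markers Sst, Pvalb, Npy and Vip none passed in P/FC. With a filter of 100, 4 genes of the list were kept. Of these 1 rose in HIP, against 14.6% of all probesets, and 3 in P/FC, against 32%.

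The counts of both lists moved with the RNA ratios and with the striatal level. With the Gapdh ratio as a covariate 0 of the 29 partners and 0 of the 6 GABA genes passed, where 3.81% of all probesets did. Gnai1 was then 0.12 in place of 0.34, Gad2 0.21 in place of 0.47 and Slc32a1 0.31 in place of 0.39. The Actb ratio left 5 partners higher (Adcy3, Gnai1, Gng2, Gng3 and Praf2) and 1 lower (Rgs7), and of the GABA genes Gad2 and Slc32a1 higher and the GABA transporter Slc6a11 lower, against 13.2% of all probesets. With the striatal level 4 partners were higher (Gnai1, Gng2, Gng3 and Praf2) and 1 was lower (Kctd12), against 12.5% of all probesets, and of the GABA genes 0 were higher and Slc6a11 was lower. In HIP the Gapdh ratio left Adcy5 and Gad1 called, where 5.22% of all probesets were, and the Actb ratio left 0 partners and 0 GABA genes, where 2.04% were and Gad1 was 0.11 in place of 0.14. The ratios themselves differed between the lines, so that these fits cannot tell line and RNA ratio apart. The part of astrocyte and neuronal content in these differences was not tested.

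**Figure D5:**
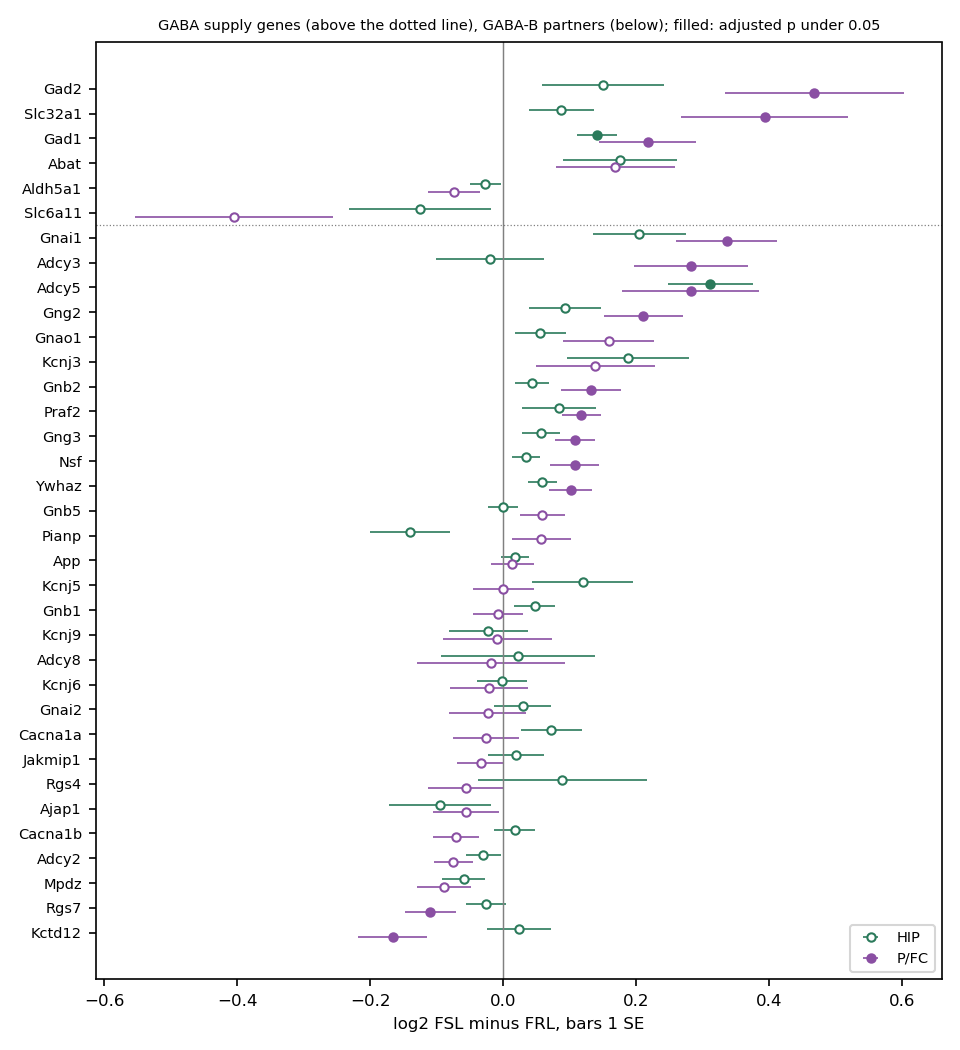
Log2 difference between FSL and FRL of the 6 GABA supply genes and 29 GABA-B partners kept in each region, with bars of 1 SE and filled points for a limma adjusted p under 0.05. In P/FC 9 partners are called higher and 2 lower, and in HIP 1 is called.

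Between the regions, 19 of the 29 partners were higher in P/FC and 6 were lower, with a median of 0.22 against 0.085 over all probesets, of which 69.6% passed. The regulator Rgs4 showed the largest difference of the list, 418 ± 124 in HIP and 1703 ± 204 in P/FC (SD, n = 39), or 2.06, and Pianp, a ligand of the Gabbr1 sushi domain, was higher by 1.10. Kctd12 was lower in P/FC by -1.19, from 601 ± 72.4 to 265 ± 35.8 (SD, n = 39), and the potassium channel gene Kcnj6 by -0.65.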

How the data were processed

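The authors labelled total RNA of each rat and region, hybridised it to Affymetrix rat arrays and normalised the scans in Rosetta Resolver, and they deposited linear intensities with the background taken off, 1 for each probeset on each array. Of these 16116 of 2425722 are at or below 0. No deposited column was left unused (0). Line, region and cohort were taken from the titles, whose line the strain labels share. For FSL arrays another free-text label names FRL (the source in P/FC, the description in HIP), and it was not followed. The labelling batch is not in the labels and was not modelled. Depth has no meaning for arrays, whose number limits the precision.

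A floor of 1 was applied before the log2. The 57 control probesets were left out. A probeset was used where at least 50% of FRL arrays and at least 50% of FSL arrays exceeded 30, which left 21630 in HIP, 22370 in P/FC and 20963 in both. The annotation gave 20832 probesets 1 symbol, 436 several and 9831 none. Line by cohort means (and region, over 78 arrays) entered a linear model in limma 3.58.1 (R 4.3.3), with Benjamini-Hochberg adjustment over all kept probesets, and tested on simulated data. The arrays of both regions of a rat were treated as independent. Correlations used 100000 two-sided permutations within line and cohort (numpy 2.4.6, scipy 1.17.1 and pandas 2.3.3 in Python 3.11.15), and figures matplotlib 3.10.9. Array correlations reached at most 0.980, so no array was taken for a duplicate.

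Named were all Gabbr1 and Gabbr2 probesets, the genes of the partner, GABA and marker lists (1 probeset a gene, of highest mean intensity), the 5 neighbours on each side and the 3 most alike genes. The rule named up to 4 genes per list and region by adjusted p, and the further list genes were named after their values were seen. Members and lists were chosen with earlier results of these data known. Alternatives were an added 16, no filter, a filter of 100, quantile normalisation, a plain analysis of variance, the Gapdh and Actb ratios and a replicate block. The striatal covariate, the 2 left-out arrays, the correlations with the ratios and the list counts under the alternatives were chosen after seeing the data.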

Additional observations from a re-analysis of the deposited data

Results flagged for a closer look

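In 42 groups of 8 to 10 arrays, each of 1 probeset, region, line and cohort, the highest and lowest arrays were compared with the rest, and 2 groups held an array far from the others. The FRL groups of cohort 1, of 12 arrays each, were not screened. They include the dim FRL rat at 122 for 1388030_a_at in HIP. Chance gives about 1 such group in 20. For Gabbr1 1388030_a_at the highest of 8 FSL arrays of HIP in cohort 2 was 277, with the next at 207. Without it the line difference in HIP was -0.64. For Gabbr1 1375720_at the highest of 9 FSL arrays of HIP in cohort 1 was 1391, with the next at 1304.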

How the results depend on the processing

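Over the alternatives the line difference of 1388030_a_at lay between -0.74 and -0.56 for HIP and between -0.75 and -0.57 for P/FC. The counts of GABA-B probesets called stayed within 1.5 times of those reported, apart from 1 (of 4, with 1369372_at and 1368952_at removed) between lines in P/FC with a filter of 100, and 3 between cohorts in HIP with the Actb ratio; the cause was not tested. The correlation of Gabbr1 with Gabbr2 passed in HIP with quantile normalisation (0.40), the mean of all probesets (0.40) and the residuals of both ratios (0.38), and in P/FC with those residuals (-0.43), and it reversed there with the mean of all probesets (0.48).

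Some small differences changed sign. Between lines in HIP these were, with the Gapdh ratio, 1375720_at at -0.0013, 1369372_at at 0.032 and 1387383_at at 0.016, and with the Actb ratio, 1369372_at at 0.068, 1387383_at at 0.053 and 1368952_at at -0.048. In P/FC they were 1387383_at at 0.015 and 1368952_at at -0.026 with the Gapdh ratio and 1387383_at at 0.043 with the striatal level. Between regions 1388030_a_at was -0.082 with quantile normalisation. Between the line differences of the regions, 1368952_at was -0.075 (Gapdh) and 1388030_a_at 0.032 (Actb). Between those of the cohorts, in HIP 1387383_at was -0.017 and 1368952_at 0.0074 with the Actb ratio and 1387383_at lay between -0.0066 and 0.0020 without 1 FSL array (replicate 5 of cohort 2 or replicate 4 of cohort 1), and in P/FC 1388030_a_at was -0.024 and 1368952_at -0.060 with the striatal level.

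Most arrays did not match best with the array of the same replicate number. Whether the numbers carry some shared processing was not tested. Arrays of the 2 regions with the same line, cohort and number correlated at -0.28 to 0.37 in their deviations, over 0.1 in 10 of 39 pairs, and 7 matched their own number best. FSL and FRL arrays of the same number did so over 0.1 in 8 of 17 pairs in HIP and 10 of 17 in P/FC, with 5 best matches in each. With the replicate block 0 of 6 probesets were called between lines in either region, 6 of 7 between regions and 0 of 7 for their interaction, and 1369372_at turned to 0.049 in HIP. The number of partners called higher was 2 in HIP and 7 in P/FC, with 1 called lower in P/FC, and of GABA genes 1 was higher in P/FC, where 9.67% of all probesets were called in HIP and 17.4% in P/FC. The block moved no other call of the 7 probesets between lines or regions. Dim probesets, near the filter, are the least precise.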
